A study of Homo sapiens with 6 samples.

Results

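Interferon-stimulated genes and nucleic acid sensors were followed as a group of 41 human genes, listed by name with no threshold on a measured value, although earlier results of these data were known when the list was drawn up. They were read on 6 Affymetrix arrays in AGS, a human gastric adenocarcinoma line, and HGC-27, a line from an undifferentiated human gastric carcinoma. A single-gene probe set was found for 40 of the 41 genes, out of 19775 genes with such a probe set, and STAT2 was not analysed here. Of these 40 genes, 37 passed the filter on dim probe sets and were tested among 13738 genes. The study looked for genes that go up after short-term transfection with MIST1, a basic helix-loop-helix transcription factor of secretory cells encoded by BHLHA15.

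Cells detect foreign or misplaced RNA and DNA with sensor proteins in the cytoplasm. RIG-I and MDA5 bind RNA and signal through MAVS, while cGAS binds DNA and signals through STING, and both routes lead to phosphorylation of IRF3 and IRF7 and to secretion of interferons. Secreted interferon signals through its receptors and a transcription factor complex that holds IRF9 and binds the interferon-stimulated response element in the promoters of many antiviral genes. Several of the sensors and factors are themselves induced by interferon, and epithelial cells can run the whole pathway.

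Each line gave 1 array of cells labelled MIST1, 1 of GFP control cells and 1 of parental cells. MIST1 cells received 3 µg of MIST1 plasmid together with 1.5 µg of a GFP plasmid by nucleofection, and GFP control cells received 3 µg of empty vector with the same GFP plasmid. Both transfected populations were sorted at 24 h for GFP and grown for another 24 h. Parental cells were untransfected, and sorting is not mentioned for them. Transfection, plasmid DNA, GFP and sorting therefore cannot be told apart in any comparison with parental cells. The labels name no genotype for the lines and no separate cultures, so p-values rest on single arrays, whose spread may be technical. In every comparison below but the fourth, that spread is how unlike the changes between conditions were in AGS and HGC-27. A response in 1 line only therefore widens it. In bulk RNA, fewer cells expressing a gene and less RNA per cell cannot be told apart.

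The median intensity of an array was 49.12 to 51.96. Arrays of the same line correlated at a Pearson r of 0.971 to 0.996 across the genes tested, and arrays of different lines at 0.692 to 0.719. In AGS MIST1, GFP control and parental cells the BHLHA15 probe set read 72.5, 75.9 and 66.3, and the HGC-27 values were 58.7, 61.9 and 41.1. It did not separate the arrays labelled MIST1, and whether it can read the construct is not known. RAB3D, a secretory vesicle GTPase known as a MIST1 target, read 1308, 540 and 603 in AGS, with 1783, 504 and 414 in HGC-27, highest on both arrays labelled MIST1. All 7 epithelial markers were called higher in AGS than in HGC-27, with a summed intensity of 44988 to 52392 in AGS and 1585 to 1829 in HGC-27. KRT19 and CLDN4 lay under the floor of 17.6 on all HGC-27 arrays. The mesenchymal markers summed to 347 to 378 in AGS and 15094 to 17246 in HGC-27, most of it VIM. Of these 5 markers, 4 were called lower in AGS, and CDH2 was not (limma adjusted p = 0.777). Of 9 leukocyte and dendritic cell markers with a probe set, 4 lay above the median of all values, 50.53, on any array. These were LYZ, at 2013 to 4026 in AGS and under the floor in HGC-27, and CD3E, FCER1G and PTPRC, at most 66.7, 69.5 and 52.4. CLEC4C and LILRA4, markers of plasmacytoid dendritic cells, stayed under the median.

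The promoters of 3 of the genes that rose in transfected cells are shown so that they can be read beside the motifs through which interferon acts. Each run is the 250 bases before the RefSeq start of the gene in GRCh38.p14, written 5′ to 3′ on the gene's strand. Capitals mark every match to the core of the interferon-stimulated response element, searched as a pair of GAAA with 2 bases of any kind between them, or to TTCNNNGAA, the gamma-activated sequence. Both strands were searched, and TTCNNNGAA is its own reverse complement. BST2 lies on the minus strand (chr19:17405631-17405880), IFI27 on the plus strand (chr14:94110486-94110735, the first of 2 windows listed), and IRF9 on the plus strand (chr14:24161015-24161264).
BST2: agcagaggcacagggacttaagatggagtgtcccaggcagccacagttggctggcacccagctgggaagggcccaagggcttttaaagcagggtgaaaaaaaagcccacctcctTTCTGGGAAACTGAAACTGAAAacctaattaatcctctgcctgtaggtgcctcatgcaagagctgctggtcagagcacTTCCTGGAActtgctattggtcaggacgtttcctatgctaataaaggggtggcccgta
IFI27: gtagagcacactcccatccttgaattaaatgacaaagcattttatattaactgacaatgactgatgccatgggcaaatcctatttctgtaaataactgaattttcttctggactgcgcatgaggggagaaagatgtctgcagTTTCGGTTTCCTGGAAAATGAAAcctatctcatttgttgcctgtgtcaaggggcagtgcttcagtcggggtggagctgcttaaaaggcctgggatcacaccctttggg
IRF9: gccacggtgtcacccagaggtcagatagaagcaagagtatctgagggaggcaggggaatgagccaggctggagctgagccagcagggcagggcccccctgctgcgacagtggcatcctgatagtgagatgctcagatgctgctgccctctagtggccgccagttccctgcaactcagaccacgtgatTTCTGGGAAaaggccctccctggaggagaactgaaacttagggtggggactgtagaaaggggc
In BST2 2 response element matches overlap each other, the upstream TTCNNNGAA match overlaps the first of them, and a separate TTCNNNGAA match follows nearer the start. IFI27 has a response element match on each strand, joined by a TTCNNNGAA match that overlaps both. IRF9 has a TTCNNNGAA match only.

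Over windows of 300 bases, which add the 50 bases from the start, the response element core matched in 19 of the 28 members with a RefSeq window, or 67.9%. The share was 2.8% among the 11065 tested genes with a window. It was 3.65% among all 27305 genes with one. TTCNNNGAA matched in 7 of the 28 members, or 25%, against 6.29% of the tested genes with a window. Among members with a window, the response element core matched in 3 of the 4 that rose in transfected cells and in 14 of the 22 that were tested and did not pass. A match is a run of letters and not a binding site shown by these data.

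The first comparison asked which members differed between transfected, sorted cells and parental cells, whatever plasmid they had received. BST2, IFI27, TRIM22, IRF9, IFITM2 and IFITM3 rose in transfected cells, by 1.35-fold to 3.25-fold over both lines, and no member fell. BST2, TRIM22 and the IFITM genes restrict viruses, IFI27 is a membrane protein induced by interferon, and IRF9 is the DNA-binding subunit of the interferon-activated complex. Calls here are from limma with cell line as a block, at an adjusted p threshold of 0.05 over all genes tested. The 6 of 37 tested members stand beside 7.99% of all genes called in either direction, 5.19% higher and 2.8% lower. The members' median change was 0.35 on the log2 scale, against 0.06 for all tested genes, and 15 members (40.5%) had an unadjusted p under the threshold, beside 29.9% of all tested genes.

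BST2 encodes tetherin, which holds budding virus particles at the cell surface. Its gene lies on chromosome 19, from 17402939 to 17405630. In AGS it read 465 in MIST1 cells, 590.5 in GFP control cells and 199 in parental cells. In HGC-27 it read 63.2 in MIST1 cells, 78.2 in GFP control cells and 9.54 in parental cells. Both transfected arrays lay above the parental array of their line, and the GFP control was the higher of the 2. BST2 rose by 1.70 ± 0.18 on the log2 scale over both lines (SE, limma adjusted p = 0.0215). The fold was 2.64 in AGS and at least 3.99 in HGC-27, where the parental value lay under the floor of 17.6.

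IFI27 encodes a small membrane protein strongly induced by interferon in epithelial cells (chromosome 14, 94105894 to 94116690). In AGS it read 5029 in MIST1 cells, 5406 in GFP control cells and 1948 in parental cells. In HGC-27 it read 35.4, 29.0 and 12.3 in the same order of conditions, the last under the floor. Transfected and parental arrays did not overlap within a line, although every HGC-27 value lay far under every AGS value. IFI27 rose by 1.14 ± 0.17 on the log2 scale (SE, limma adjusted p = 0.0252).

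TRIM22 encodes an interferon-induced E3 ubiquitin ligase that restricts viral transcription (chromosome 11, 5689790 to 5710863). It read 122, 105 and 58.7 in AGS MIST1, GFP control and parental cells, and 95.4, 109 and 41.2 in HGC-27. All 4 transfected arrays lay above both parental arrays, so the groups did not overlap even across lines. TRIM22 rose by 1.13 ± 0.18 on the log2 scale (SE, limma adjusted p = 0.0274).

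IRF9 binds the interferon-stimulated response element as part of a transcription factor complex (chromosome 14, 24161265 to 24166565). It read 1658, 1554 and 950.5 in AGS MIST1, GFP control and parental cells, and 309, 289 and 190 in HGC-27. The change from parental cells was close in the 2 lines, 0.76 in AGS and 0.65 in HGC-27 on the log2 scale. Over both lines it was 0.70 ± 0.11 (SE, limma adjusted p = 0.0252).

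IFITM2 and IFITM3 encode membrane proteins that block the fusion of viruses with endosomes. They are near-identical paralogs on chromosome 11 (307816 to 309395 and 319676 to 320860), and their probe sets carry the suffix for possible cross-hybridisation, so the 2 readings may share signal. IFITM3 read 7989, 8248 and 6640 in AGS MIST1, GFP control and parental cells, and 7944, 7853 and 5321 in HGC-27. IFITM2 read 6884, 7112 and 5839 in AGS, with 7337, 7255 and 4654 in HGC-27. Transfected arrays lay above the parental array in both lines, and the change was small. IFITM3 rose by 0.43 ± 0.07 and IFITM2 by 0.45 ± 0.09 on the log2 scale (SE, limma adjusted p = 0.0278 and 0.0369). With quantile normalization IFITM3 was among the members called and IFITM2 was not.

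**Figure D1:**
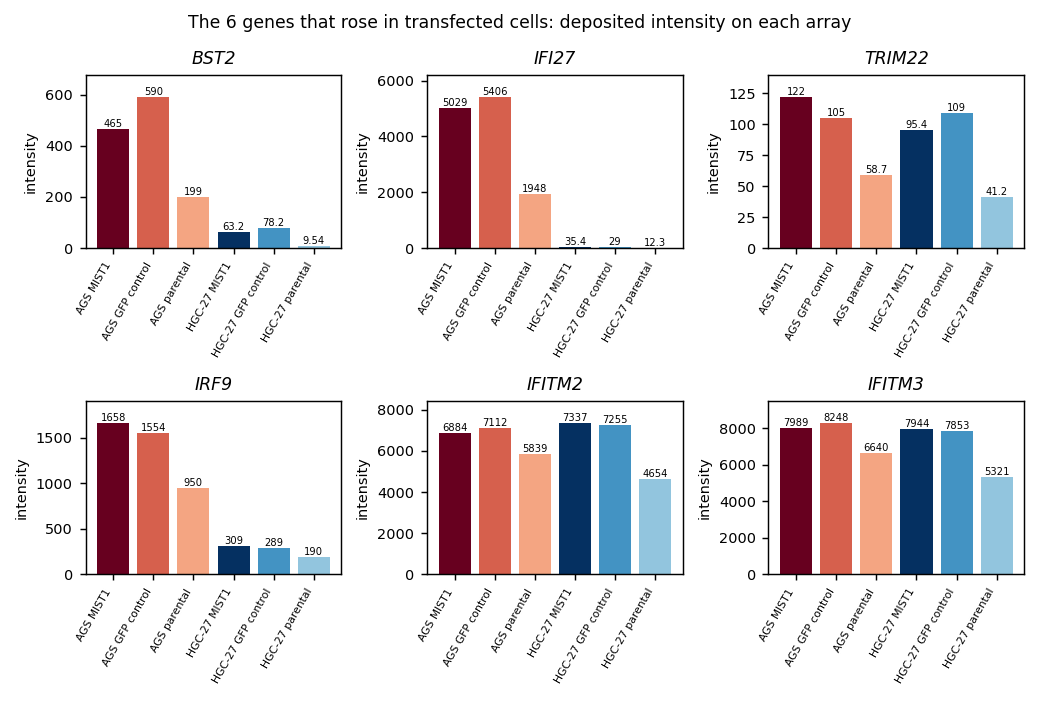
Deposited intensity (bars from 0, linear scale, a scale of its own per gene) of the 6 genes that rose in transfected cells, on each of the 6 arrays, 1 bar per array and no error bars. In every panel the MIST1 and GFP control bars stand above the parental bar of the same line, for BST2 at 465 and 590.5 against 199 in AGS and at 63.2 and 78.2 against 9.54 in HGC-27.

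No sensor passed the test in transfected against parental cells. STING1, the adaptor that binds the product of cGAS, read 45.9, 55.1 and 35.4 in AGS MIST1, GFP control and parental cells, and 466, 477 and 144 in HGC-27. Its change was 1.11 ± 0.28 on the log2 scale (SE, limma adjusted p = 0.0603). RIGI, which encodes the RNA sensor RIG-I, read 424, 463 and 403 in AGS, with 51.4, 52.8 and 23.4 in HGC-27 (limma adjusted p = 0.138). When the probe sets of each gene were averaged instead of taking the brightest, RIGI was called higher and CGAS lower in transfected cells. In HGC-27, the probe sets used for STING1 and RIGI read at least 2-fold higher on each transfected array than on the parental array. The 2 other RIGI probe sets changed by 1.04 and 0.68 in AGS and by 0.61 and 0.23 in HGC-27 on the log2 scale. The other STING1 probe set changed by -0.46 in AGS and 1.69 in HGC-27. IFIH1, which encodes MDA5, read 409, 398 and 402 in AGS and lay under the floor on all HGC-27 arrays. CGAS read 230, 232 and 306 in AGS, with 7.57, 17.9 and 5.51 in HGC-27, so its transfected AGS values lay under the parental value. A second CGAS probe set lay lower in transfected cells of both lines, at -1.38 in AGS and -1.36 in HGC-27 on the log2 scale. IFI16, a DNA-binding protein, read 125, 166 and 96.1 in AGS, with 5.11, 3.53 and 19.98 in HGC-27. DHX58, the third RIG-I-like receptor, was listed at 1 on all 6 arrays.

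Among the transcription factors IRF1, IRF3 and IRF7 did not pass. IRF7, the interferon-inducible amplifier of the type I response, read 1733, 1655 and 1017 in AGS MIST1, GFP control and parental cells. In HGC-27 it read 11.6, 19.0 and 13.7, near or under the floor throughout. IRF7 differed by 0.74 on the log2 scale in AGS, the HGC-27 values were too near the floor to show a change, and the difference over both lines was 0.40 ± 0.19 (SE, limma adjusted p = 0.216). IRF1, an activator of many interferon-induced promoters, read 609, 635 and 508 in AGS, with 329, 363 and 194 in HGC-27, higher on all 4 transfected arrays (limma adjusted p = 0.0715). IRF3, the constitutive factor under the sensors, read 1916, 1809 and 2321 in AGS, with 655, 643 and 516 in HGC-27, with transfected arrays lower in AGS and higher in HGC-27.

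None of the 10 RNA-directed effectors passed. OASL, a relative of the oligoadenylate synthetases that binds RIG-I, came nearest at 0.47 ± 0.11 on the log2 scale (SE, limma adjusted p = 0.0514). It read 916, 825 and 654 in AGS MIST1, GFP control and parental cells, and 595, 615 and 418 in HGC-27, but its other probe set went the opposite way, at -0.54 in AGS and -0.35 in HGC-27. OAS1, which makes the second messenger that activates RNase L, read 1328, 1316 and 563 in AGS and lay under the floor on all HGC-27 arrays. OAS3, which makes the same messenger, read 1104, 1076 and 589 in AGS, with 66.9, 78.3 and 82.0 in HGC-27. Both synthetases thus lay higher on the transfected AGS arrays, with no such order in HGC-27. OAS2 read 59.6, 85.4 and 49.3 in AGS and close to the floor in HGC-27. ISG20, an exonuclease for single-stranded RNA, read 163, 124 and 95.2 in AGS, with 20.1, 17.0 and 21.0 in HGC-27.

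The IFIT proteins, which bind the ends of viral RNA, had no common order. IFIT1 read 1329, 1469 and 1199 in AGS MIST1, GFP control and parental cells, and 109, 125 and 119 in HGC-27. IFIT2 read 359, 376 and 617 in AGS, with 34.0, 51.8 and 35.6 in HGC-27. IFIT2 was thus lower on the transfected AGS arrays, while IFIT5 read 228, 247 and 236 there, with 212, 191 and 139 in HGC-27. EIF2AK2, the RNA-dependent kinase PKR that stops translation, read between 1172 and 1330 on all 6 arrays, within 1.2-fold of the parental array everywhere.

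Of the remaining effectors of entry, replication and release, 4 tested members did not pass. SAMD9, a restriction factor of poxviruses, read 338, 377 and 250 in AGS MIST1, GFP control and parental cells, and 78.5, 64.3 and 28.3 in HGC-27 (0.92 ± 0.22, SE, limma adjusted p = 0.0567). MX2, a GTPase that restricts HIV-1, read 231, 257 and 141 in AGS, with 24.4, 21.3 and 14.6 in HGC-27. RSAD2, the radical SAM enzyme viperin, read 148, 162 and 83.0 in AGS, with 26.2, 23.1 and 22.2 in HGC-27. These 3 genes lay higher on all 4 transfected arrays than on the parental array of their line. A second RSAD2 probe set changed by 0.68 in AGS and by -1.09 in HGC-27 on the log2 scale, the opposite direction in HGC-27. IFITM1, which acts at the cell surface, read 4510, 4741 and 4341 in AGS, with 1324, 1355 and 963 in HGC-27 (limma adjusted p = 0.126). MX1, a GTPase that traps influenza nucleocapsids, stayed under the median of all values and was not tested, at 26.1, 24.4 and 36.8 in AGS, with 18.4, 17.8 and 26.2 in HGC-27.

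ISG15, the ubiquitin-like modifier of the response, read 6622, 6859 and 5253 in AGS MIST1, GFP control and parental cells, and 296, 324 and 241 in HGC-27. The change was 0.36 in both lines on the log2 scale, just short of the threshold (SE 0.08, limma adjusted p = 0.0523). USP18, which removes ISG15 and dampens receptor signalling, read 318, 372 and 275 in AGS, with 164, 239 and 260 in HGC-27, in opposite orders. PARP9 read 772, 831 and 581 in AGS and lay close to the floor in HGC-27, and its partner in a ubiquitin ligase complex, DTX3L, read 1584, 1758 and 1446 in AGS, with 96.2, 83.7 and 95.4 in HGC-27. Neither passed (limma adjusted p = 0.371 and 0.803), and a second PARP9 probe set changed by -0.83 in AGS and -1.34 in HGC-27. HERC5, the ligase for ISG15 in human cells, read at most 18.8 on any array and was not tested. HERC6, its relative, read 47.2, 64.3 and 43.2 in AGS, with 77.9, 88.7 and 93.3 in HGC-27.

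Among the other interferon-induced genes IFI44 had an adjusted p of 0.0504 in limma, at 115, 148 and 72.9 in AGS MIST1, GFP control and parental cells and 25.9, 40.1 and 19.5 in HGC-27. IFI35, which binds NMI, read 87.7, 117 and 53.2 in AGS, with 238, 279 and 286 in HGC-27. IFI6, an inhibitor of apoptosis at the mitochondrion, read 1088, 1272 and 948 in AGS, with 48.1, 32.0 and 43.1 in HGC-27. All 3 genes lay higher on the transfected AGS arrays, and of the 3 only IFI44 did so on both HGC-27 arrays too. A second IFI44 probe set read 44.0, 59.1 and 49.0 in HGC-27 MIST1, GFP control and parental cells, with MIST1 under parental. IFI44L read 10.3, 17.99 and 4.60 in AGS, with 474, 604 and 555 in HGC-27, and did not pass.

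Counted by direction alone, 33 of the 37 tested members (89.2%) had a positive change over both lines, beside 57.7% of all tested genes. On all 4 transfected arrays 16 members lay above the parental array of their line and none lay under it, beside 30% and 18.8% of all tested genes. With a fold rule in place of the test, 4 members (BST2, IFI27, TRIM22 and IRF9) were at least 1.5-fold higher on both transfected arrays of both lines, beside 2.19% of all genes. By the same rule no member was lower, beside 1.05% of all genes. The members' median change was 0.36 in AGS, against 0.00 for all genes, and 0.24 in HGC-27, against 0.11 for all genes.

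**Figure D2:**
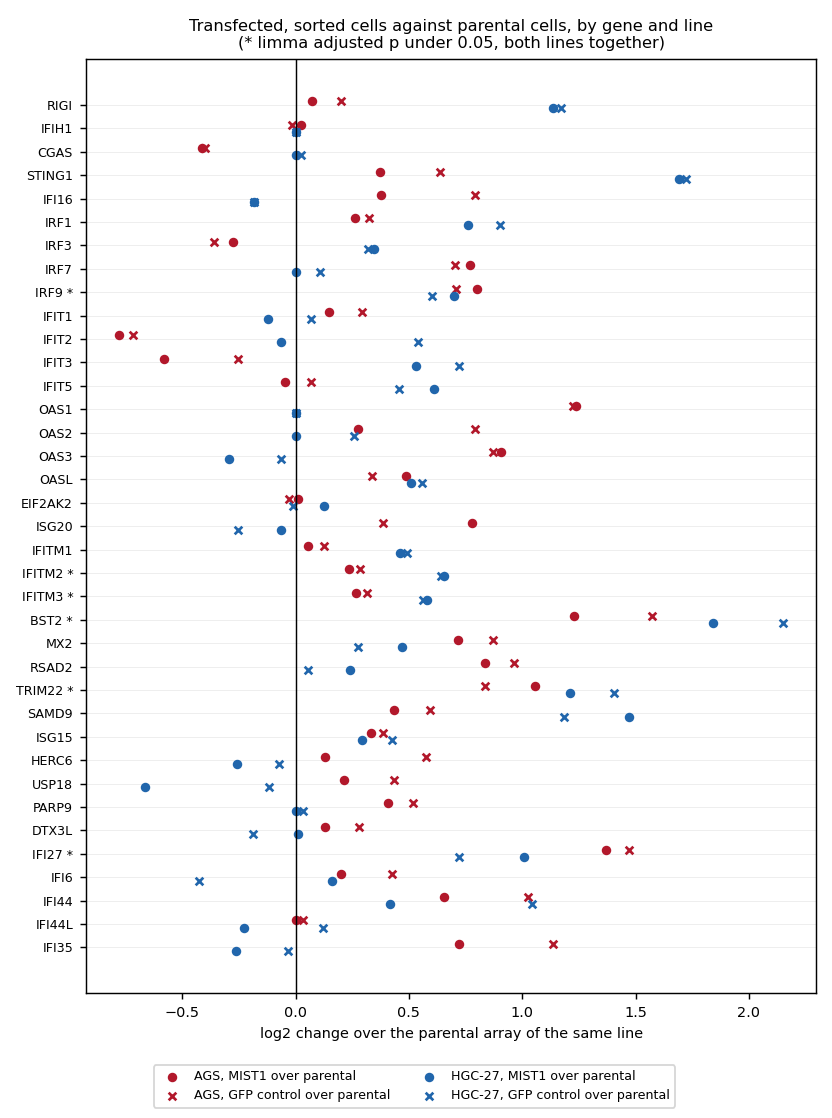
Log2 change of each of the 37 tested members over the parental array of the same line (horizontal axis), with circles for MIST1 and crosses for the GFP control, AGS in red and HGC-27 in blue, and values floored at 17.6. The circle and the cross of a line mostly lie close together, and the 6 genes with an asterisk lie right of 0 on all 4 arrays, BST2 between 1.23 and 2.15.

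RNA measures also differed between transfected and parental cells. MALAT1, a nuclear non-coding RNA, read 529, 390 and 3685 in AGS MIST1, GFP control and parental cells, and 382, 324 and 1566 in HGC-27. A control probe set for the middle of 18S ribosomal RNA read 46.8, 48.2 and 1142 in AGS, with 52.7, 52.0 and 371 in HGC-27. The 3′ to 5′ ratios of the control probe sets lay between 0.826 and 0.883 for GAPDH and between 0.968 and 1.05 for ACTB. The leukocyte and dendritic cell markers summed to 2286, 2573 and 4250 in AGS, with 288, 269 and 263 in HGC-27, most of it LYZ in AGS. The part of these differences in the members' changes was not tested. The count of 6 members became 0 without the filter on dim probe sets, 0 without a mean-variance trend in limma and 3 with the floor at the median. Of all tested genes 0%, 0% and 4.74% were called at these settings, in that order. With that floor IFITM3, IRF9 and TRIM22 stayed called, and BST2, IFI27 and IFITM2 did not.

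The second comparison set MIST1 cells against GFP control cells and asked whether any member followed MIST1 itself. No member was called, and none of the 13738 tested genes was (0% by limma). At an unadjusted p under the threshold there were 0 members and 181 of the 13738 genes. The fit behind these counts takes its spread from the parental arrays too. In a fit of the 4 MIST1 and GFP control arrays alone, 6 members had such a p and 0 were called. Of all tested genes, 62 (0.451%) were called in that fit. The members' median difference was -0.02 on the log2 scale, as for all tested genes. MIST1 lay under the GFP control in both lines for 17 of 37 members and above it in both for 4, beside 32.6% and 24.3% of all tested genes.

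The most nearly called difference was that of IFI44, at -0.50 ± 0.21 on the log2 scale (SE, limma adjusted p = 1). BST2, IFI27, TRIM22 and IRF9 differed between MIST1 and GFP control cells by -0.33, 0.09, 0.01 and 0.09 on the log2 scale. Within a line, 34 of 37 members differed by under 1.5-fold in both lines. No member was at least 1.5-fold higher in MIST1 than in GFP control cells of both lines, beside 0.211% of all genes, and none was lower by that factor, beside 0.0218%. Differences near a gene's SE, 0.21 for BST2, were not detectable with 1 array per line and condition. Larger ones could be missed too. RAB3D differed by 1.55 ± 0.23 on the log2 scale (SE, limma unadjusted p = 0.00034) and was not called. The absence of called members therefore does not exclude changes of that size.

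The third comparison set AGS against HGC-27 over the 3 conditions. AGS was higher for 28 of 37 tested members and lower for 4, and the differences were far larger than those with transfection. IFI27, IRF7, OAS1, PARP9 and IFI6 were over 25-fold higher in AGS, while IFI44L, STING1, IFI35 and HERC6 were higher in HGC-27. The 32 members called stand beside 60.4% of all tested genes in limma, 33.2% of them higher in AGS and 27.3% lower. At 4-fold or more and called there were 21 members higher in AGS and 2 lower, beside 6.81% and 6.7% of all tested genes. At least 1.5-fold higher in AGS in all 3 conditions were 26 members, and 3 were lower by that factor, beside 19.7% and 15.4% of all tested genes. The median difference of the members was 2.40 on the log2 scale, against 0.06 for all genes. Of the 37 tested members, 13 passed the filter through AGS arrays only and had to differ (IFIH1, CGAS, IFI16, IRF7, OAS1, OAS2, ISG20, MX2, RSAD2, PARP9, IFI27, IFI6 and IFI44). IFI44L passed through HGC-27 arrays only, and 23 members lay above the median in both lines. Of these 23, limma called 15 higher in AGS and 3 lower. The share called among all genes above the median in both lines was not counted, so these counts are a description only. For the 14 others the fold is a description, and where values lay under the floor it is a lower bound, since the floor stands in for the lower readings.

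On the AGS arrays 34 (MIST1), 36 (GFP control) and 33 (parental) of the 40 members lay above the median of all values. On the HGC-27 arrays it was 23, 24 and 19. Of all tested genes 89.6%, 89.6% and 87.1% lay above it on the AGS arrays and 91.1%, 90.8% and 88.7% on the HGC-27 arrays. All 3 AGS values lay above all 3 HGC-27 values for 29 of 37 tested members and under them for 5. The lines overlapped for 3. Of the 37, 14 passed the filter through 1 line only and had to differ. The share of all tested genes without overlap was not counted, so these counts are a description only.

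**Figure D3:**
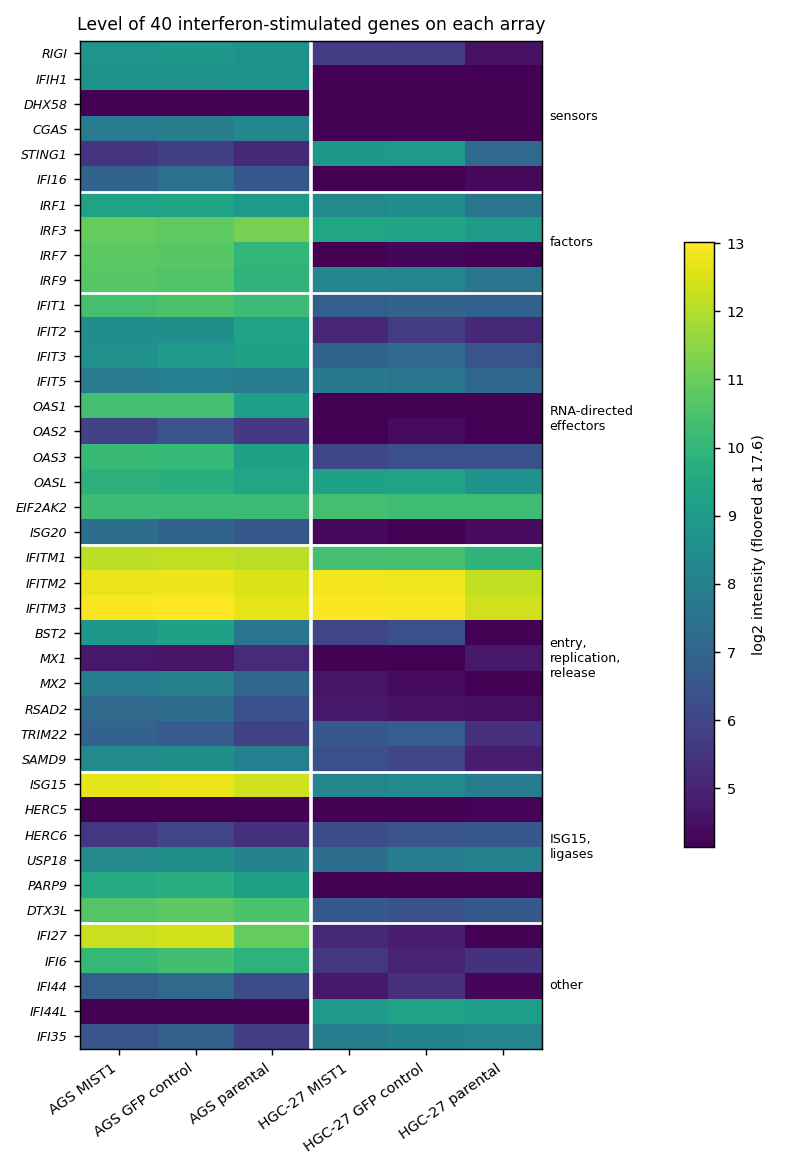
Log2 of the deposited intensity, floored at 17.6, of the 40 members with a probe set (rows, by role) on the 6 arrays (columns), from dark at the floor to yellow at the highest values, with the white vertical line between AGS and HGC-27. Most rows are brighter in AGS, while STING1, IFI44L and IFI35 are brighter in HGC-27 and EIF2AK2, IFITM2 and IFITM3 look alike in both; brightness cannot be read between rows as abundance.

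RIGI, IFIH1, CGAS and IFI16 were higher in AGS, and STING1 was higher in HGC-27. DHX58 was not tested, and IFIH1, CGAS and IFI16 passed the filter through AGS arrays only and had to differ. IFIH1 was at least 22.9-fold higher in AGS, since all HGC-27 values lay under the floor. RIGI was 10.8-fold higher in AGS (limma adjusted p = 2.5e-05). CGAS was at least 14.3-fold and IFI16 at least 6.86-fold higher in AGS, with 2 of 3 HGC-27 values under the floor for each. The second CGAS probe set gave a log2 difference of only 0.43. STING1 went the other way and was 7.10-fold lower in AGS, at 35.4 to 55.1 in AGS and 144 to 477 in HGC-27. CGAS and STING1, the sensor and adaptor of 1 pathway, thus had opposite signs, for CGAS with a size that depended on the probe set.

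All 4 transcription factors measured were higher in AGS, beside 33.2% of all tested genes, and IRF7 passed the filter through AGS arrays only. IRF7 was at least 79.1-fold higher there, with values of 1017 to 1733 in AGS and 11.6 to 19.0 in HGC-27, 2 of the 3 under the floor. IRF9 was 5.24-fold, IRF3 3.33-fold and IRF1 2.04-fold higher in AGS. No AGS value overlapped an HGC-27 value for any of the 4, a description only, since the share of all genes without overlap was not counted.

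Among the RNA-directed effectors 8 of 10 were higher in AGS, beside 33.2% of all tested genes. Of the 8, OAS1, OAS2 and ISG20 passed the filter through AGS arrays only and had to differ. OAS1 was at least 56.5-fold higher, with every HGC-27 value under the floor, OAS3 11.8-fold and OAS2 at least 3.38-fold. IFIT1 was 11.3-fold and IFIT3 4.06-fold higher in AGS, IFIT2 was higher by 3.46 on the log2 scale, and ISG20 was at least 6.39-fold higher. OASL differed by 1.48-fold only, although its other probe set gave a log2 difference of 2.77. IFIT5 and EIF2AK2 did not pass, with differences of 0.42 ± 0.16 and -0.07 ± 0.08 on the log2 scale (SE, limma adjusted p = 0.0599 and 0.480).

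The 3 IFITM genes, neighbours on chromosome 11, split. IFITM1 was 3.77-fold higher in AGS, at 4341 to 4741 in AGS and 963 to 1355 in HGC-27 (limma adjusted p = 6.7e-06). IFITM2 and IFITM3 differed by 0.07 ± 0.08 and 0.13 ± 0.07 on the log2 scale and did not pass (SE, limma adjusted p = 0.515 and 0.130). MX2 was at least 9.70-fold, BST2 at least 8.56-fold, SAMD9 6.06-fold and RSAD2 5.29-fold higher in AGS. TRIM22 differed by 0.27 ± 0.17 on the log2 scale and did not pass (SE, limma adjusted p = 0.223). TRIM22, IFITM2 and IFITM3 were thus the members that rose with transfection without a called difference between the lines.

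ISG15 read 5253 to 6859 in AGS and 241 to 324 in HGC-27, a 21.8-fold difference with the smallest SE of all members in this comparison after IFITM3, 0.08 on the log2 scale. PARP9 was at least 40.6-fold and DTX3L 17.4-fold higher in AGS, but the second PARP9 probe set gave a log2 difference of only 0.54. The 2 genes are neighbours on chromosome 3 that share a start region, and in HGC-27 PARP9 read 12.0 to 17.98 and DTX3L 83.7 to 96.2. USP18 was 1.47-fold higher in AGS, and HERC6 was 1.70-fold lower in AGS.

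IFI27 was at least 143-fold higher in AGS, at 1948 to 5406 in AGS and 12.3 to 35.4 in HGC-27, where the parental value lay under the floor. It cannot be ranked against OAS1 or IRF7, which are bounds too. IFI6 was 27.0-fold and IFI44 3.94-fold higher in AGS. IFI44L, the neighbour of IFI44 on chromosome 1, was at least 30.5-fold lower in AGS, at 4.60 to 17.99 in AGS, with 2 of 3 values under the floor, and 474 to 604 in HGC-27. The neighbours IFI44 and IFI44L thus had opposite signs, although the second IFI44 probe set gave a log2 difference of only 0.09. IFI35 was 3.27-fold lower in AGS.

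**Figure D4:**
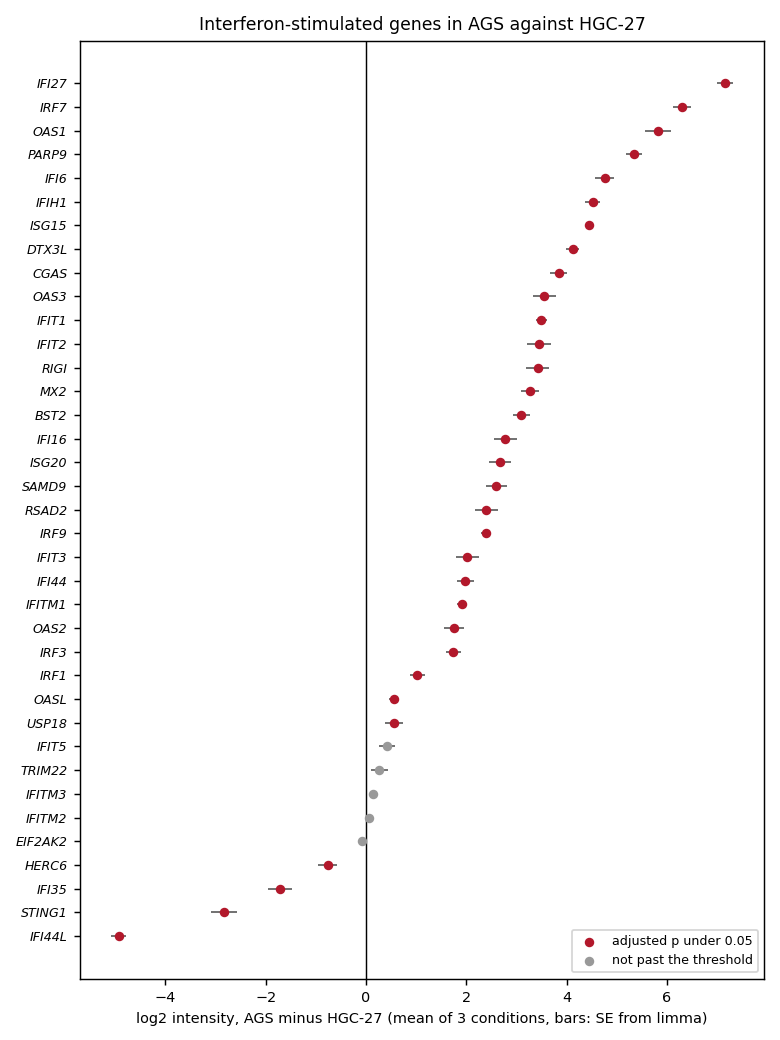
Difference in log2 intensity of the 37 tested members (horizontal axis, AGS minus HGC-27, mean of 3 conditions; bars are the SE from limma), ordered by size, red where the adjusted p is under 0.05 and grey otherwise. The points run from 7.16 for IFI27 to -4.93 for IFI44L, and 28 red points lie right of 0 and 4 left of it; points with values under the floor, IFI27 and IFI44L among them, are lower bounds in size.

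Here the 3 conditions took the place of replicates, so the p-values hold no information on how cultures of a line vary. The epithelial and mesenchymal marker sums given above moved with it, as did LYZ, and their part was not tested. The count of members called stayed between 31 and 33 in every alternative that was run, leaving out each array included.

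The fourth comparison asked whether transfected cells differed from parental cells by different amounts in the 2 lines. The change was larger in HGC-27 for RIGI, STING1, IRF3, IFIT3, IFITM1, IFITM2 and IFITM3, and larger in AGS for OAS1 and OAS3. These 9 of 37 members stand beside 10.1% of all tested genes called by limma, 2.62% with a larger change in AGS and 7.53% with a larger change in HGC-27. The median difference of the change was 0.07 on the log2 scale for the members and -0.12 for all tested genes. With quantile normalization that median of all genes was 0.00, and 6 members were called, 2 larger in AGS and 4 larger in HGC-27. This stands beside 7.14% of all tested genes. The 9 members became 3 with the floor at the median (OAS1, STING1 and IFI27) and 1 without a variance trend (OAS1). Without the filter on dim probe sets 1 was called (HERC5, none of the 9). Of all tested genes 0.844%, 1.74% and 3.25% were called at these settings, in that order. OAS1 did not pass with no floor.

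STING1 changed by 0.50 in AGS and by 1.71 in HGC-27 on the log2 scale, a difference of -1.21 ± 0.22 (SE, limma adjusted p = 0.0309). Its other probe set gave -2.15. RIGI differed by -1.02 ± 0.19 (SE, limma adjusted p = 0.0307), but its 2 other probe sets gave 0.43 and 0.45, in the opposite direction. For RIGI the line with the larger change therefore depended on the probe set.

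OAS1 changed by 1.23 in AGS and 0 in HGC-27, where all values lay under the floor, a difference of 1.23 ± 0.18 (SE, limma adjusted p = 0.0201). Its other probe set, which read 61.6, 54.8 and 82.3 in HGC-27 MIST1, GFP control and parental cells, gave 1.58. OAS3 differed by 1.07 ± 0.19 (SE, limma adjusted p = 0.0282), and its other probe set gave 0.05. In the readings used for the test, both synthetases lay above parental cells on the AGS arrays and not on the HGC-27 arrays.

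IRF3 changed by -0.32 in AGS and 0.33 in HGC-27, a difference of -0.65 ± 0.11 (SE, limma adjusted p = 0.0274). IFIT3, which read 385, 484 and 577 in AGS MIST1, GFP control and parental cells and 127, 145 and 87.8 in HGC-27, differed by -1.04 ± 0.24 (SE, limma adjusted p = 0.0471), and its other probe set by -0.12. The IFITM genes differed by less, -0.38 for IFITM1, -0.39 for IFITM2 and -0.28 for IFITM3. IRF3 and IFIT3 thus had opposite signs in the 2 lines, and the IFITM genes the same sign.

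**Figure D5:**
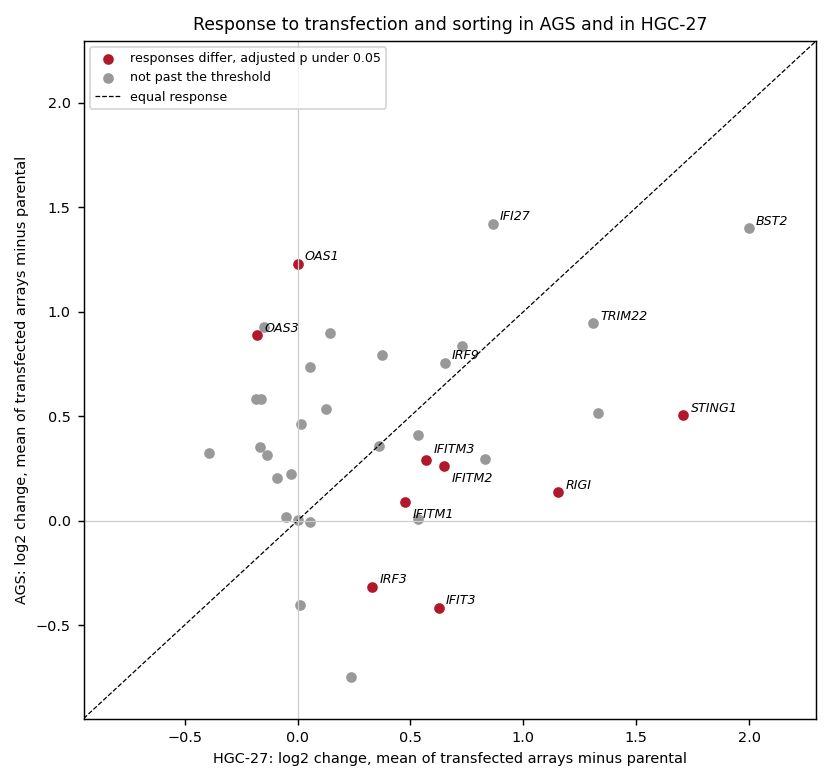
Log2 change of the 37 tested members with transfection and sorting (mean of the MIST1 and GFP control arrays minus the parental array, values floored at 17.6) in AGS (vertical axis) against HGC-27 (horizontal axis), red where the 2 changes differ at an adjusted p under 0.05. OAS1 and OAS3 lie above the dashed line of equal change, at 1.23 and 0.89 in AGS, against 0 and -0.18 in HGC-27, and STING1 and RIGI lie far to the right of it.

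Each line has 1 parental array, so this test rests on the spread between its 2 transfected arrays, and a deviation of a parental array cannot be told apart from a different response. Leaving out any transfected array left 0 members called, with 1 residual degree of freedom.

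The rest of the pathway was read from lists that hold no member. Interferon transcripts were low. Of 12 ligand genes with a probe set, IFNL1 and IFNL2 alone passed the filter, and neither passed the test in transfected cells. IFNL1 read 70.1, 62.0 and 91.0 in AGS MIST1, GFP control and parental cells, and 44.5, 35.5 and 59.4 in HGC-27. IFNB1, the main type I interferon of epithelial cells, read 38.4, 27.7 and 9.01 in AGS, with 13.5, 26.1 and 12.7 in HGC-27. Parental cells thus had the highest IFNL1 value of each line. IFNB1 lay under the floor on 3 of the 6 arrays, both parental arrays among them, and never reached the median of all values, so its order is not read here. IFNL2 read 50.8, 44.9 and 57.0 in AGS, with 39.0, 44.7 and 75.7 in HGC-27. IFNE read at most 48.9, IFNG at most 31.8, and IFNK, IFNW1 and the interferon alpha genes IFNA1, IFNA2, IFNA5, IFNA8 and IFNA21 at most 30.1.

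Of 10 tested genes for receptors, JAK kinases and STAT3, 2 rose in transfected cells and none fell. IFNGR1, the ligand-binding chain of the interferon gamma receptor, rose by 0.65 and JAK2, its kinase, by 0.63 on the log2 scale (limma adjusted p = 0.0409 and 0.0487). IFNGR1 changed less in AGS than in HGC-27, by -0.55 (limma adjusted p = 0.0395). IFNAR1, a chain of the type I receptor, read 201, 190 and 95.9 in AGS MIST1, GFP control and parental cells, and 224, 198 and 158 in HGC-27 (limma adjusted p = 0.0574). IFNAR2, IFNLR1, IL10RB and IFNGR2 changed by -0.04, 0.05, 0.01 and 0.10 on the log2 scale and did not pass. Between lines, IFNGR1, IFNGR2, JAK1 and STAT3 were higher in AGS, and JAK2 and TYK2 were lower in AGS, while the receptor chains of type I and type III interferon did not pass.

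Of 16 tested sensing adaptors and kinases, 1 rose in transfected cells. It was MYD88, the adaptor of most Toll-like receptors, by 0.60 on the log2 scale (limma adjusted p = 0.0418). It read 2600, 2666 and 2006 in AGS MIST1, GFP control and parental cells, and 493, 457 and 269 in HGC-27. In AGS against HGC-27, 10 of the 16 were higher, among them MYD88 by 2.61, TICAM1 by 2.14 and MAVS by 1.23 on the log2 scale, and RNF135, DDX41 and TRAF3 were lower, beside the 33.2% and 27.3% of all tested genes. None of 6 nucleic acid clearance genes passed in transfected cells. SAMHD1 and ADAR were higher in AGS, and ENPP1 and the RNase H2 subunits RNASEH2A, RNASEH2B and RNASEH2C were lower there.

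Of 11 negative regulators, 1 fell in transfected cells. It was SOCS1, a feedback inhibitor of JAK kinases, which changed by -1.07 on the log2 scale (limma adjusted p = 0.0431), but its other probe set changed by 1.21 in AGS and 0.75 in HGC-27. SOCS3, a related inhibitor, read 119, 131 and 259 in AGS MIST1, GFP control and parental cells, and 124, 83.6 and 47.4 in HGC-27, with opposite orders in the 2 lines (difference of the change -2.15, limma adjusted p = 0.0235). In AGS 6 of the 11 were higher than in HGC-27, among them NLRX1 by 2.72 and PTPN6 by 2.29 on the log2 scale, and none was lower, beside the same shares of all genes.

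Among 37 further interferon-stimulated genes tested, 1 rose and 1 fell in transfected cells. CMPK2, a mitochondrial nucleotide kinase and genomic neighbour of RSAD2, rose by 0.73 on the log2 scale (limma adjusted p = 0.0346), at 204, 254 and 128 in AGS MIST1, GFP control and parental cells and 362, 362 and 233 in HGC-27. TNFSF10, the death ligand TRAIL, fell by 1.37 on the log2 scale (limma adjusted p = 0.0201), but its other probe set changed by -0.09 in AGS and -0.14 in HGC-27. The median change of this list was 0.11, against 0.06 for all tested genes and 0.35 for the members. The chemokine CXCL10 read 65.5, 70.9 and 93.8 in AGS, with 27.5, 23.9 and 22.3 in HGC-27.

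In AGS against HGC-27, 23 of these 37 genes were higher and 4 lower, with a median of 0.93 on the log2 scale, beside 33.2% and 27.3% of all tested genes and their median of 0.06. EPSTI1 was higher by 5.98, GBP3 by 4.31, PARP14 by 3.52 and DDX60 by 3.43, while TRIM14, SLFN5, CMPK2 and PNPT1 were lower. GBP1, an interferon-induced GTPase, LAMP3 and IFI27L2 changed more with transfection in AGS than in HGC-27, by 1.50, 1.55 and 1.02 on the log2 scale, and SP100 less, by -0.74 (limma adjusted p of 0.0153 to 0.0416). GBP1 read 159, 170 and 58.2 in AGS MIST1, GFP control and parental cells, with 10.6, 12.1 and 13.0 in HGC-27, under the floor throughout, as OAS1 did.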

How the data were processed

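RNA was labelled from 5 µg of total RNA per array, per the labels' protocols. The authors deposited 1 linear-scale intensity per probe set and array, with values of 0.48 to 19070.49. dChip is named in the study's design text, and the background correction and scaling are not given in the sources used here. Of 54675 probe sets, 41097 have 1 gene in the platform annotation, 1801 several and 11777 none listed, and 41043 symbols were updated through RefSeq. Values were floored at 17.6, the 25th percentile, taken to log2 and not rescaled. Probe sets above 50.53, the median, on at least 2 arrays were kept (25954), and each gene took its probe set with the highest mean. Fits used limma 3.58.1 (lmFit, eBayes with a trend) in R 4.3.3 on all 6 arrays. Cell line was a block, since the labels give a parental array for its own line's transfected cells, and the fourth comparison used 4 means of line by transfection. All tests were two-sided, adjusted after Benjamini and Hochberg, on 2 residual and 4.46 prior degrees of freedom (4.22 prior in the fourth comparison). The number of arrays limits the precision. Scripts were tested on simulated data. The members and the other gene lists were chosen with earlier results of these data known. All members are named. Listed genes are named where they pass a test or a 1.5-fold rule, and ligands and receptors always. Promoters are RefSeq's, and proteins were not used here. Alternatives changed the floor, filter, normalization, choice of probe sets, variance trend, block, arrays and fold limit.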

Additional observations from a re-analysis of the deposited data

Results flagged for a closer look

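For 9 members the change from parental to transfected cells differed between the lines by limma's interaction test, and the difference (AGS minus HGC-27) is given on the log2 scale. It was 1.23 for OAS1 and 1.07 for OAS3. It was -1.21 for STING1, -1.04 for IFIT3, -1.02 for RIGI and -0.65 for IRF3. It was -0.39 for IFITM2, -0.38 for IFITM1 and -0.28 for IFITM3. Of 6 other probe sets of these genes that passed the filter on dim values, 4 had the same direction, and the 2 that did not were those of RIGI.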

How the results depend on the processing

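In transfected against parental cells the 6 called members became 0 without the filter on dim probe sets, 0 without a variance trend and 3 with the floor at the median. Without the replicate block for cell line the count was 0, and the pairing of the arrays of a line comes from the labels. Leaving out 1 array gave 8 to 23 members: 23 with HGC-27 parental left out, 18 with AGS parental left out and 10 with HGC-27 MIST1 left out, and all 6 genes were among those called each time. At the fold rule 12 members were higher at a 1.2-fold limit, 1 at 2-fold and 2 with the floor at the median. By that rule 1 was lower with the mean of all probe sets. In MIST1 against GFP control cells 2 were lower at 1.2-fold. Shares of all tested genes at these other settings are not given here, so the counts are not read as a result about the members. In the comparison of the lines' changes the 9 members became 3 with the floor at the median, 1 without the filter, 1 without a variance trend and 0 to 0 over 4 fits that each left out a transfected array, and leaving out a parental array could not be fitted. RIGI turned to 0.091 on the log2 scale with the floor at the median, where its HGC-27 values lie near that floor. AGS against HGC-27 kept 31 to 33 members and MIST1 against the GFP control 0 in every alternative run, although the fit of those 4 arrays alone called 62 genes. Over all genes, counts in transfected against parental cells ran from 0 to 1344 over the alternatives and from 729 to 5861 without 1 array, and in the comparison of changes from 116 to 1523 and 0 without 1 array. Against the GFP control, MIST1 arrays gave 1 to 59 genes without 1 array. The causes were not tested. Values near the floor limit the folds between lines, IFI44L's on the AGS side and most others in HGC-27, where 6 to 10 of 40 members lay at or under it on each array.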
